A study of Mus musculus with 14 samples.

Results

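The genes described here carry calcium and phosphoinositide signals in mouse embryonic fibroblasts. They are a named set of 43 genes, found by symbol in the deposited count table, and all 43 are among its 24015 symbols. The set holds 2 calmodulin genes, 9 calmodulin-dependent kinases, 3 IP3 receptors, 6 phospholipases C, 5 protein kinases C, 3 calcineurin catalytic subunits, 4 NFAT factors, 2 calcineurin regulators, 4 genes of store-operated calcium entry, 3 calcium pumps and 2 diacylglycerol kinases.

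Phospholipase C splits a membrane lipid into IP3, which opens calcium channels of the endoplasmic reticulum, and diacylglycerol, which activates most protein kinases C. Released calcium binds calmodulin, which switches on kinases and the phosphatase calcineurin, and calcineurin sends NFAT factors into the nucleus. Pumps return the calcium to the endoplasmic reticulum or to the outside, and STIM and ORAI proteins let calcium back in when the store is empty.

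RNA was measured in 14 libraries of 129s2 fibroblasts from embryos of day 14.5, at passages 3 to 4, after 18 hours in medium with or without glucose. Wild-type cells in normal medium (WT-NT) gave 4 libraries and wild-type cells in glucose-free medium (WT-GS) gave 3. Cells with the SirT7-/- genotype, which lack a sirtuin deacylase, gave 4 libraries in normal medium (KO-NT) and 3 in glucose-free medium (KO-GS). Nothing in the labels says whether replicates were separate cultures or embryos, so p-values cover only how far these samples scatter, which may be technical.

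Total counts ran from 59788270 to 91607861 per library. Levels are normalised CPM, each count as a rate of its library's total after TMM scaling. Sirt7 lay at 17.4 to 23.0 CPM in the wild-type libraries and at 0.292 to 1.44 CPM in the libraries labelled SirT7-/-. Hspa5, a chaperone of the endoplasmic reticulum, lay at 1039 to 1472 CPM in WT-NT and 6426 to 7569 CPM in WT-GS, and the library labelled KO-NT 4 held 6299 CPM while the library labelled KO-GS 3 held 1057 CPM. Txnip, which falls when glucose is low, was at 5.51 CPM in the library labelled KO-NT 4 and 117 CPM in the library labelled KO-GS 3, again opposite to their labels. Both are kept as labelled, and each SirT7-/- result is also given from a fit of the other 12 libraries. The sum of 10 fibroblast markers, all detected, was 33553 to 40826 CPM in WT-NT and 15508 to 17637 CPM in WT-GS. Of these markers 7 were lower in WT-GS without overlap, among them the abundant collagens Col1a1, Col1a2 and Col3a1, while Vim, Dcn and Fbln2 overlapped. In bulk RNA, fewer cells of a type and less RNA per cell cannot be told apart.

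The promoters shown are those of the members with the largest called changes in starved wild-type cells, as far as the RefSeq table (GRCm38.p6) holds them. Rcan1 and Itpr2 rose, and Camk2b and Nfatc2 fell. Atp2a2 and Prkch also belong here by size of change and are named only. Each stretch is the 250 bases before a start, 5′ to 3′ on the gene's strand. The capitals mark the NFAT core GGAAAA and the cyclic AMP response element TGACGTCA, on either strand.

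Rcan1, upstream start, chr16:92466170-92466419, minus strand: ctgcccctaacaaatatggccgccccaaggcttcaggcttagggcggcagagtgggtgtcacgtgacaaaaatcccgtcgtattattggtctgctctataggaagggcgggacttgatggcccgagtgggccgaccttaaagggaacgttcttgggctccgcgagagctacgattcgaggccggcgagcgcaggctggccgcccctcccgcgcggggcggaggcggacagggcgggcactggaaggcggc
Rcan1, downstream start, chr16:92400079-92400328, minus strand: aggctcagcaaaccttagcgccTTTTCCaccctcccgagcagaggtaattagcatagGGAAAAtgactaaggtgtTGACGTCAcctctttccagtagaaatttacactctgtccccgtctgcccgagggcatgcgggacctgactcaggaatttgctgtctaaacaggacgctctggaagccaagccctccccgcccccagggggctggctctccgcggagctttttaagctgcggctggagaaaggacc
Itpr2, chr6:146502224-146502473, minus strand: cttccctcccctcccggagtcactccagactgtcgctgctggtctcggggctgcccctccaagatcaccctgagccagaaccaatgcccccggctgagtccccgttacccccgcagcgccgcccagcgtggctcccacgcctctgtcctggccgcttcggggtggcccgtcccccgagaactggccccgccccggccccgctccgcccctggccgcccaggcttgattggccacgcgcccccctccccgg
Camk2b, chr11:6065749-6065998, minus strand: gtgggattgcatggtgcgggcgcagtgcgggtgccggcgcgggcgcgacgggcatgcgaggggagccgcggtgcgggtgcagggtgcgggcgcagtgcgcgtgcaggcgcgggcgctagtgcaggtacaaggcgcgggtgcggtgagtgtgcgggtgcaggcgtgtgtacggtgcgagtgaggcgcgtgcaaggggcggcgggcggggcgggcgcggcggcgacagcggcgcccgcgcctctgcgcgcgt
Nfatc2, upstream start, chr2:168601658-168601907, minus strand: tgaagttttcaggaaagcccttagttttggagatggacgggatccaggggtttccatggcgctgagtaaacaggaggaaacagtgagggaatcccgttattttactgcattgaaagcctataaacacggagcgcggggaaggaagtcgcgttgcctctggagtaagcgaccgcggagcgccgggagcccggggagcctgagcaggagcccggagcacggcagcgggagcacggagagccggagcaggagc
Nfatc2, downstream start, chr2:168590366-168590615, minus strand: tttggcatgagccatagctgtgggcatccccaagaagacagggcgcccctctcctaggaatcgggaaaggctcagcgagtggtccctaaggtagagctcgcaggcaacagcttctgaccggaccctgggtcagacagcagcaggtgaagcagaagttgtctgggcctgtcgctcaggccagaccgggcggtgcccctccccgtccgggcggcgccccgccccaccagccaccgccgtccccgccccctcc

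Of these 6 stretches, only the downstream start of Rcan1 held a match, with 2 NFAT cores and 1 cyclic AMP response element. The starts of Rcan1 lie 66091 bases apart, and gene-level counts do not tell transcripts from them apart. For its upstream start, the bases after the start were not found in a GENCODE M21 transcript of the gene. For the other stretches shown they were. The members were not rich in the NFAT core as a set. The NFAT core was in 6 of the 48 stretches that the table holds for 32 members, or 12.5%, against 20.4% of all 32851 stretches. The cyclic AMP response element was in 1 of the 48 (2.08%), against 1.55% of all. The endoplasmic reticulum stress element ERSE and the amino acid response element TGATGCAAT were in 0 of the 48, against 0.113% and 0.167% of all. At such low rates 0 of 48 is the likely count for any genes, so it does not describe the members. The table holds no stretch for 11 members, among them Atp2a2. A match is a run of letters, not a measured binding site.

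The first comparison asks how wild-type cells changed these genes after glucose was removed. Rcan1, a feedback inhibitor of calcineurin, and the pumps Atp2a2 and Atp2b1 rose, as did 2 IP3 receptors and 2 calcineurin catalytic subunits. The NFAT factors Nfatc1, Nfatc2 and Nfatc4, the calmodulin gene Calm3 and the kinase Camkk2 fell. By edgeR's quasi-likelihood test with Benjamini-Hochberg adjustment over all genes, 23 of 43 members were called at an adjusted p under 0.05, 10 higher and 13 lower. Over all 15263 genes tested 33.8% were called, 16.8% higher and 17.0% lower. The median log2 change was -0.13 over the members and -0.03 over all genes. The groups did not overlap for 13 members that were higher and 15 that were lower in WT-GS, against 22.6% and 22.5% of all genes.

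**Figure D1:**
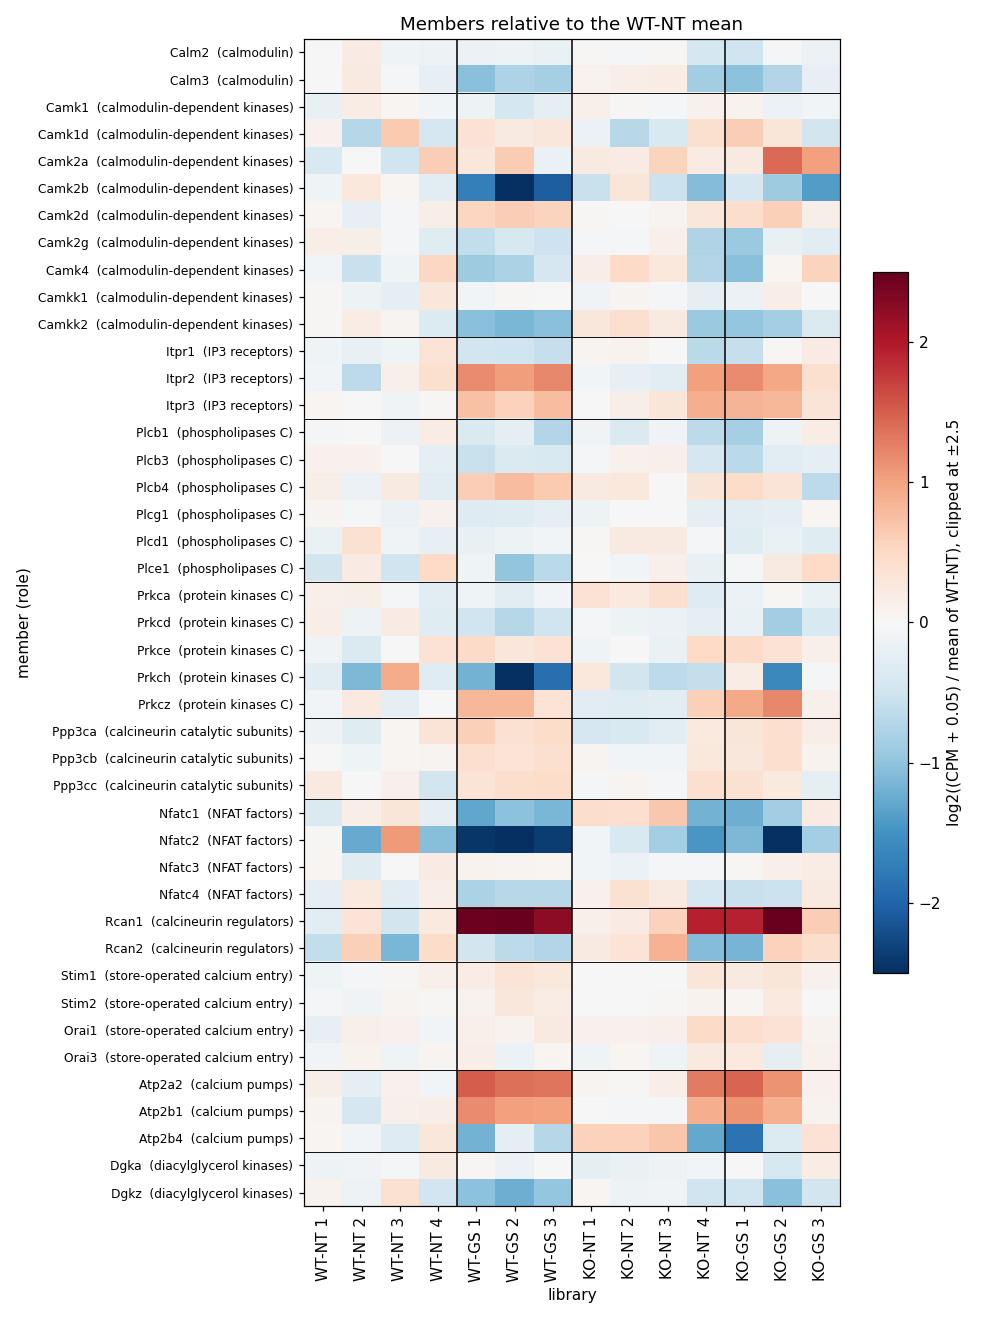
Level of each member in each of the 14 libraries as log2 of CPM plus 0.05 relative to the WT-NT mean, with members in rows by role and libraries in columns by group. Rcan1, Atp2a2, Atp2b1 and Itpr2 are red in the 3 WT-GS libraries, and the library labelled KO-NT 4 shows the same colours for these genes.

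Rcan1 was at 28.4, 43.8, 25.1 and 41.0 CPM in WT-NT and at 188, 218 and 164 CPM in WT-GS. Every starved library was above every library in normal medium by a wide margin. The log2 change was 2.46 (SE 0.21, adjusted p = 0.00035), a 5.50-fold rise and the largest among the members. Its relative Rcan2 varied within WT-NT, from 6.01 to 20.2 CPM, and overlapped with WT-GS at 7.93 to 9.64 CPM (log2 change -0.62, SE 0.41, adjusted p = 0.27).

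Atp2a2, the SERCA pump that refills the endoplasmic reticulum with calcium, was at 501, 385, 485 and 431 CPM in WT-NT and at 1291, 1173 and 1137 CPM in WT-GS. The ranges lie far apart, and the log2 change was 1.41 (SE 0.12, adjusted p = 0.00031). Atp2b1, which pumps calcium out across the plasma membrane, was at 188, 134, 197 and 201 CPM in WT-NT and at 410, 365 and 363 CPM in WT-GS. It rose by a log2 change of 1.07 (SE 0.15, adjusted p = 0.0018). Atp2b4, a second plasma membrane pump, went the other way in value, from 59.1 to 89.6 CPM in WT-NT to 32.4, 62.8 and 45.0 CPM in WT-GS, but the groups overlapped (log2 change -0.65, SE 0.23, adjusted p = 0.064).

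The IP3 receptors moved in both directions. Itpr2 was at 37.3, 24.7, 42.8 and 51.6 CPM in WT-NT and at 88.2, 80.7 and 89.7 CPM in WT-GS, a log2 change of 1.14 (SE 0.22, adjusted p = 0.0072). Itpr3 was at 136, 131, 124 and 133 CPM in WT-NT and at 219, 196 and 224 CPM in WT-GS, a log2 change of 0.70 (SE 0.08, adjusted p = 0.00073). Both were higher in every starved library. Itpr1 was at 65.5, 61.5, 65.7 and 88.6 CPM in WT-NT and at 50.7, 49.5 and 47.0 CPM in WT-GS, or -0.52 on the log2 scale (SE 0.13, adjusted p = 0.022). Its groups did not overlap, though the WT-NT 4 value stands above the rest of its group, and the call was lost without any 1 of the 3 WT-GS libraries. Per kilobase of exon, Itpr3 was the most abundant receptor in both media, at 58.6% ± 4.77 (SD, n = 4) of the family in WT-NT and 65.8% ± 1.03 (SD, n = 3) in WT-GS. Itpr1 went from 28.3% ± 2.40 to 13.9% ± 1.07 and Itpr2 from 13.1% ± 2.93 to 20.3% ± 0.11, so the order of these receptors turned. The family's sum went from 25.0 ± 2.25 to 36.0 ± 2.03 CPM per kb.

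**Figure D2:**
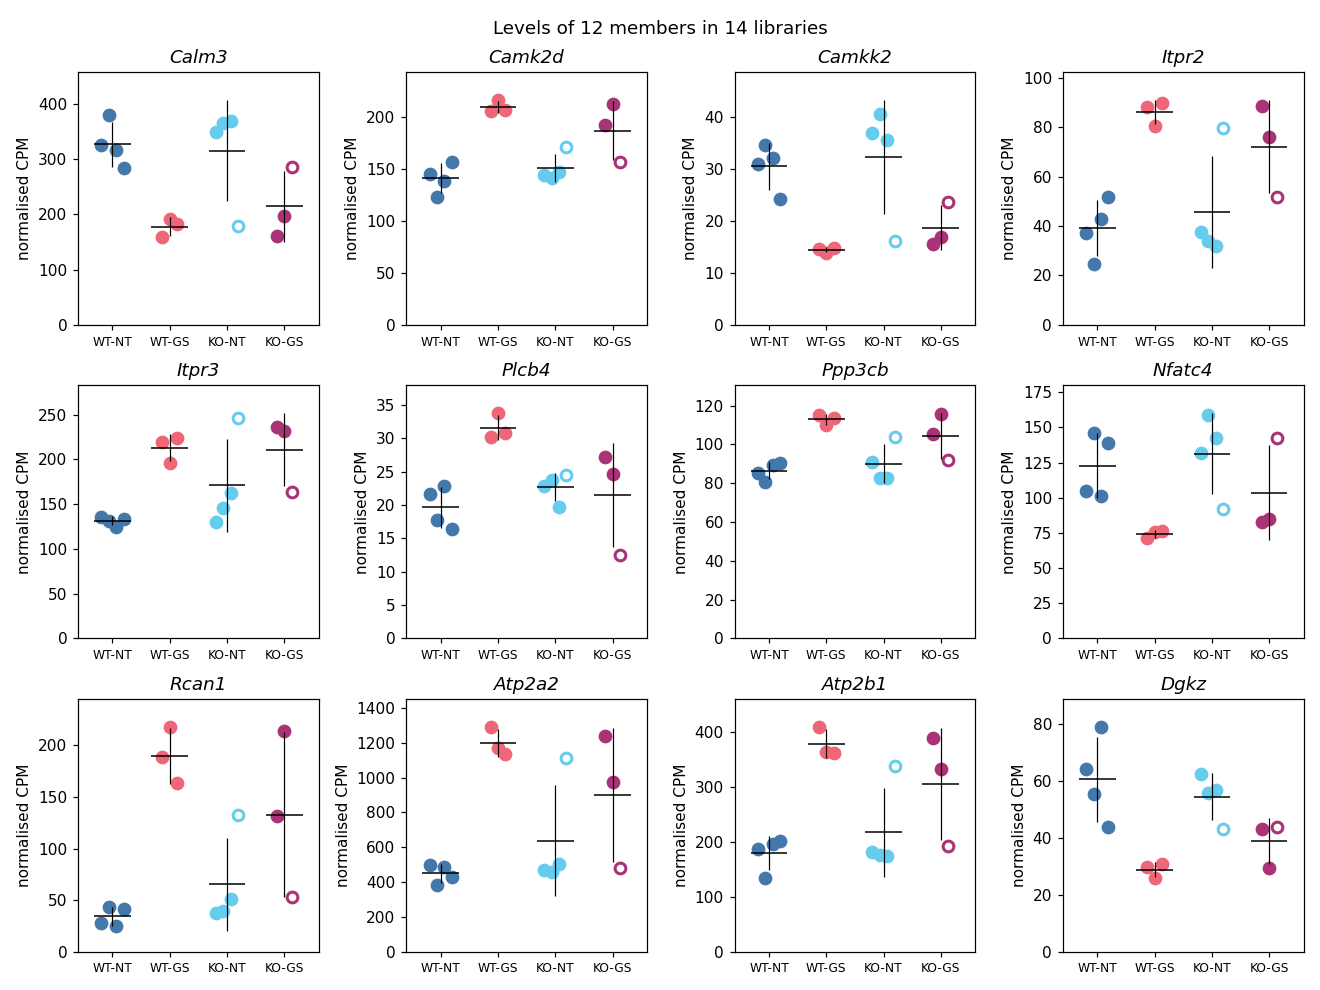
Normalised CPM of 12 members in each library by group, with the mean (line) and SD (bar). These members were called in wild-type starvation under every alternative. Open circles are the library labelled KO-NT 4 and the library labelled KO-GS 3, which lie nearer the opposite medium for Rcan1, Atp2a2 and Atp2b1.

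Calm2 and Calm3 encode the same calmodulin protein. Calm3 was at 326, 381, 317 and 283 CPM in WT-NT and at 159, 191 and 183 CPM in WT-GS, with no overlap (log2 change -0.88, SE 0.12, adjusted p = 0.0018). Calm2 was at 342 to 427 CPM in WT-NT and 335 to 341 CPM in WT-GS and was not called (log2 change -0.14, SE 0.10, adjusted p = 0.27). The coding sequences of Calm2 and Calm3 are 82.7% identical over 450 bases, and sharing of reads between these genes was not tested.

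Among the calmodulin-dependent kinases, 1 of 9 rose and 3 fell, beside the 33.8% of all genes called. Camkk2, which phosphorylates and activates other kinases including AMPK, was at 31.0, 34.7, 32.1 and 24.1 CPM in WT-NT and at 14.7, 13.9 and 14.8 CPM in WT-GS. All starved libraries were lower, at -1.08 on the log2 scale (SE 0.13, adjusted p = 0.0012). Its paralogue Camkk1 was not called, at -0.01 on the log2 scale (SE 0.14, adjusted p = 0.95). Camk2d was at 146, 123, 139 and 157 CPM in WT-NT and at 206, 217 and 207 CPM in WT-GS, and rose by a log2 change of 0.57 (SE 0.10, adjusted p = 0.0041). Camk2g was at 122, 120, 105 and 88.9 CPM in WT-NT and at 70.8, 83.0 and 76.1 CPM in WT-GS, a log2 change of -0.51 (SE 0.13, adjusted p = 0.019). Both are subunits of the multimeric kinase CaMKII, and neither pair of groups overlapped. Per kilobase, Camk2g went from 62.4% ± 5.48 to 44.4% ± 1.34 of the family and Camk2d from 36.6% ± 5.21 to 54.6% ± 1.37. Their order turned on this scale only. In CPM, Camk2d was already above Camk2g in every WT-NT library. The turn thus rests on the exon lengths taken, 8524 bases for Camk2d and 3817 for Camk2g. The family's sum was 45.5 ± 3.00 CPM per kb in WT-NT and 45.2 ± 2.33 in WT-GS.

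Camk2b, a CaMKII subunit known from neurons, was near the limit of detection, at 0.284, 0.380, 0.320 and 0.250 CPM in WT-NT and at 0.060, 0 and 0.036 CPM in WT-GS. The library at 0 allows up to 0.0502 CPM, taking 3 counts as the limit for counting error. The fall was called (adjusted p = 0.012), and its log2 change of -3.12 depends on the prior count of the fit. Camk1, Camk1d, Camk2a and Camk4 were not called, with log2 changes from -0.69 for Camk4 to 0.29 for Camk2a.

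**Figure D3:**
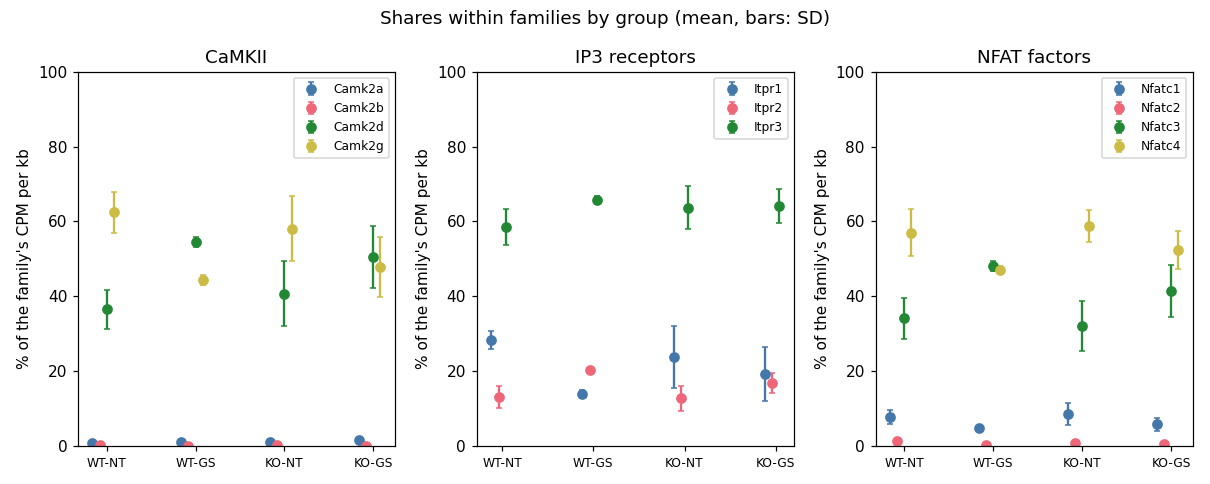
Share of each gene in its family's CPM per kb of exon, by group, as mean and SD, for CaMKII, IP3 receptors and NFAT factors. Camk2d passes Camk2g and Itpr2 passes Itpr1 from WT-NT to WT-GS. In CPM without division by length, Camk2d is above Camk2g in both groups. KO-NT and KO-GS include the library labelled KO-NT 4 and the library labelled KO-GS 3, which widen their bars.

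Of calcineurin's 3 catalytic subunits 2 rose, and of the 4 NFAT factors, its targets, 3 fell, where 16.8% of all genes were called higher and 17.0% lower. Ppp3cb was at 85.4, 80.7, 89.2 and 90.5 CPM in WT-NT and at 115, 110 and 114 CPM in WT-GS (log2 change 0.38, SE 0.07, adjusted p = 0.0062). Ppp3ca was at 54.8, 48.4, 61.7 and 75.3 CPM in WT-NT and at 91.3, 78.6 and 83.0 CPM in WT-GS (log2 change 0.49, SE 0.15, adjusted p = 0.039). The Ppp3ca call was lost under 8 of 16 alternatives, among them the fit without any 1 WT-GS library. Both rose with no overlap, and Ppp3cc was not called (log2 change 0.41, SE 0.17, adjusted p = 0.099). The family's sum went from 34.7 ± 2.80 to 46.7 ± 1.69 CPM per kb.

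Nfatc4 was at 105, 146, 101 and 139 CPM in WT-NT and at 71.2, 76.0 and 76.3 CPM in WT-GS (log2 change -0.72, SE 0.15, adjusted p = 0.0085). Nfatc1 was at 23.4, 33.6, 37.1 and 25.7 CPM in WT-NT and at 12.1, 14.6 and 13.5 CPM in WT-GS (log2 change -1.16, SE 0.18, adjusted p = 0.0032). Both NFAT factors fell in every starved library. Nfatc3 was at 89.2 to 126 CPM in WT-NT and 114 to 116 CPM in WT-GS and was not called (log2 change 0.07, SE 0.12, adjusted p = 0.68). The NFAT sum went from 52.5 ± 4.90 to 38.8 ± 0.70 CPM per kb.

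Nfatc2 was at 5.01, 2.02, 10.3 and 2.31 CPM in WT-NT and at 0.864, 0.201 and 0.911 CPM in WT-GS (log2 change -2.89, SE 0.76, adjusted p = 0.024). Prkch, a diacylglycerol-activated protein kinase C, was at 3.37, 1.85, 7.76 and 3.30 CPM in WT-NT and at 1.78, 0.419 and 1.07 CPM in WT-GS (log2 change -1.90, SE 0.62, adjusted p = 0.049). Both were highest in WT-NT 3 and lowest in WT-GS 2. So was the sum of 11 macrophage markers, which ran from 275 to 1707 CPM in WT-NT and from 13.3 to 329 CPM in WT-GS. All 11 were detected, and their defining genes Csf1r and Emr1 were at 228 and 80.3 CPM in WT-NT 3 and at 1.81 and 0.084 CPM in WT-GS 2. Prkcd, another protein kinase C, was also highest in WT-NT 3 and lowest of the wild-type libraries in WT-GS 2, at 112, 90.2, 114 and 79.9 CPM in WT-NT and 70.3, 60.7 and 69.7 CPM in WT-GS (log2 change -0.57, SE 0.14, adjusted p = 0.020). Dgkz, which converts diacylglycerol to phosphatidic acid, was at 64.2, 55.2, 78.9 and 43.7 CPM in WT-NT and at 29.6, 25.8 and 30.8 CPM in WT-GS (log2 change -1.08, SE 0.20, adjusted p = 0.0058), with the same highest and lowest libraries. The part of macrophage RNA in these changes was not tested. The calls for Nfatc2 and Prkch were lost under several alternatives, among them the fit without any 1 WT-GS library.

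**Figure D4:**
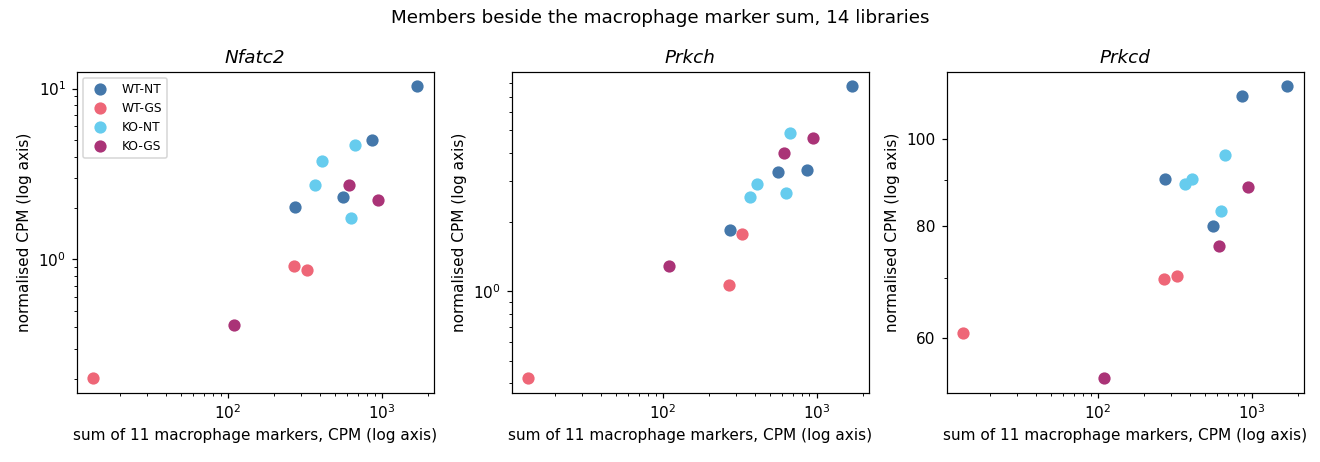
Normalised CPM of Nfatc2, Prkch and Prkcd against the summed CPM of 11 macrophage markers, each point 1 of the 14 libraries, both axes logarithmic. WT-NT 3, with a sum of 1707 CPM, lies at the top right of each panel, and WT-GS 2, with 13.3 CPM, at the far left.

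Of the other protein kinases C, Prkcz, an atypical member that does not need calcium or diacylglycerol, was at 1.60, 2.0, 1.43 and 1.66 CPM in WT-NT and at 3.00, 3.02 and 2.14 CPM in WT-GS (log2 change 0.70, SE 0.23, adjusted p = 0.047). That call was lost under 10 of 16 alternatives. Prkca and Prkce were not called, at log2 changes of -0.15 and 0.38. Of the 6 phospholipases C, Plcb4 was at 21.6, 17.8, 22.8 and 16.3 CPM in WT-NT and at 30.2, 33.7 and 30.7 CPM in WT-GS, and rose by a log2 change of 0.68 (SE 0.14, adjusted p = 0.0082). Plcb3 and Plcg1 fell by smaller amounts, with log2 changes of -0.43 (SE 0.11, adjusted p = 0.020) and -0.29 (SE 0.08, adjusted p = 0.033). Plcb1, Plcd1 and Plce1 were not called, with log2 changes from -0.55 to -0.13. Dgka was not called either (log2 change -0.04, SE 0.11, adjusted p = 0.79).

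None of the 4 genes of store-operated entry was called by edgeR in the 7 wild-type libraries, beside 33.8% of all genes. With only 4 genes, this count does not set them apart from the rest. Stim1, the store's calcium sensor, was at 34.0 to 40.1 CPM in WT-NT and 42.0 to 46.8 CPM in WT-GS, without overlap (log2 change 0.26, SE 0.09, adjusted p = 0.052), and it was called under 4 of 16 alternatives. Stim2, Orai1 and Orai3 had log2 changes of 0.19, 0.14 and 0.03, and of these only Stim2 was called, under 1 alternative.

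Outside the set, 108 of 122 other listed genes of these pathways were tested, and 17 rose and 17 fell, beside the 33.8% called among all genes. The largest rises among genes at 1 CPM or more were Plcxd2 (log2 change 2.05), Dgkk (1.71), Tmem66 (1.25), which encodes an inhibitor of store-operated entry, Isyna1 (0.89), the first enzyme of inositol synthesis, Micu3 (0.86) and Slc24a3 (0.79). The largest falls were the voltage-gated calcium channel Cacna1h (-2.33), Mylk (-1.99), a calmodulin-dependent kinase of myosin, the channel Cacna1g (-1.48), Trpv4 (-1.17), Trpv2 (-1.11) and Cacna1c (-1.02). Of the 7 genes listed for calcineurin and NFAT, 6 were tested, with a median log2 change of 0.18. Of these, 1 was called higher and 1 lower, beside 16.8% and 17.0% of all genes.

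Of the 23 calls, 12 held under every alternative: Calm3, Camk2d, Camkk2, Itpr2, Itpr3, Plcb4, Ppp3cb, Nfatc4, Rcan1, Atp2a2, Atp2b1 and Dgkz. The share of all called genes that held is not given here, so this count does not set the members apart from other genes. The count was 15 without WT-NT 1 (25.2% of all genes called), 14 without WT-GS 1 (18.4%) and 13 without WT-GS 3 (18.4%).

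SirT7-/- cells were compared between media in the same way. With the libraries as labelled, edgeR called 0 of 43 members, against 0% of 15186 genes, and 6 of 43 members had an unadjusted p under 0.05, as did 14.8% of all genes. DESeq2 called 1 member, Plcd1, and 4.12% of all genes, and limma-voom called 0. Without the library labelled KO-NT 4 alone, edgeR called 5 members (11.6%) and 14.5% of all genes. The groups as labelled did not overlap for 1 member that was higher and 1 that was lower, against 5.04% and 7.49% of all genes. Rcan1 shows how the groups mix. It was at 37.6, 39.8, 51.2 and 133 CPM in KO-NT and at 132, 214 and 53.3 CPM in KO-GS, and the high value of KO-NT and the low value of KO-GS belong to the library labelled KO-NT 4 and the library labelled KO-GS 3.

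In the 12-library fit, 18 of 43 members were called, 11 higher and 7 lower, against 33.1% of 15864 genes, 18.6% higher and 14.5% lower. KO-GS then has 2 libraries, assumed to vary like the other groups. Of the 23 members called in wild type, 15, or 65.2%, were called here in the same direction, and these are 83.3% of the 18. Over all genes tested in both fits, the shared calls were 75.3% of those in wild type and 74.6% of those in SirT7-/- cells. Prkce, Stim1 and Atp2b4 were called here and not among the 7 wild-type libraries, and the difference between genotypes was not called for any of them. The 12-library fit called Prkce and Stim1 in wild type too. Their SirT7-/- calls were each lost under 6 of 17 alternatives, all of them fits without 1 library. Among the 15 shared calls, the SirT7-/- call of Dgkz was lost under 8 of 17 alternatives. Those of Plcb3 and Ppp3cb were lost under 1 each, and the rest held. The groups did not overlap for 17 members that were higher and 14 that were lower, against 31.9% and 32.1% of all genes.

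**Figure D5:**
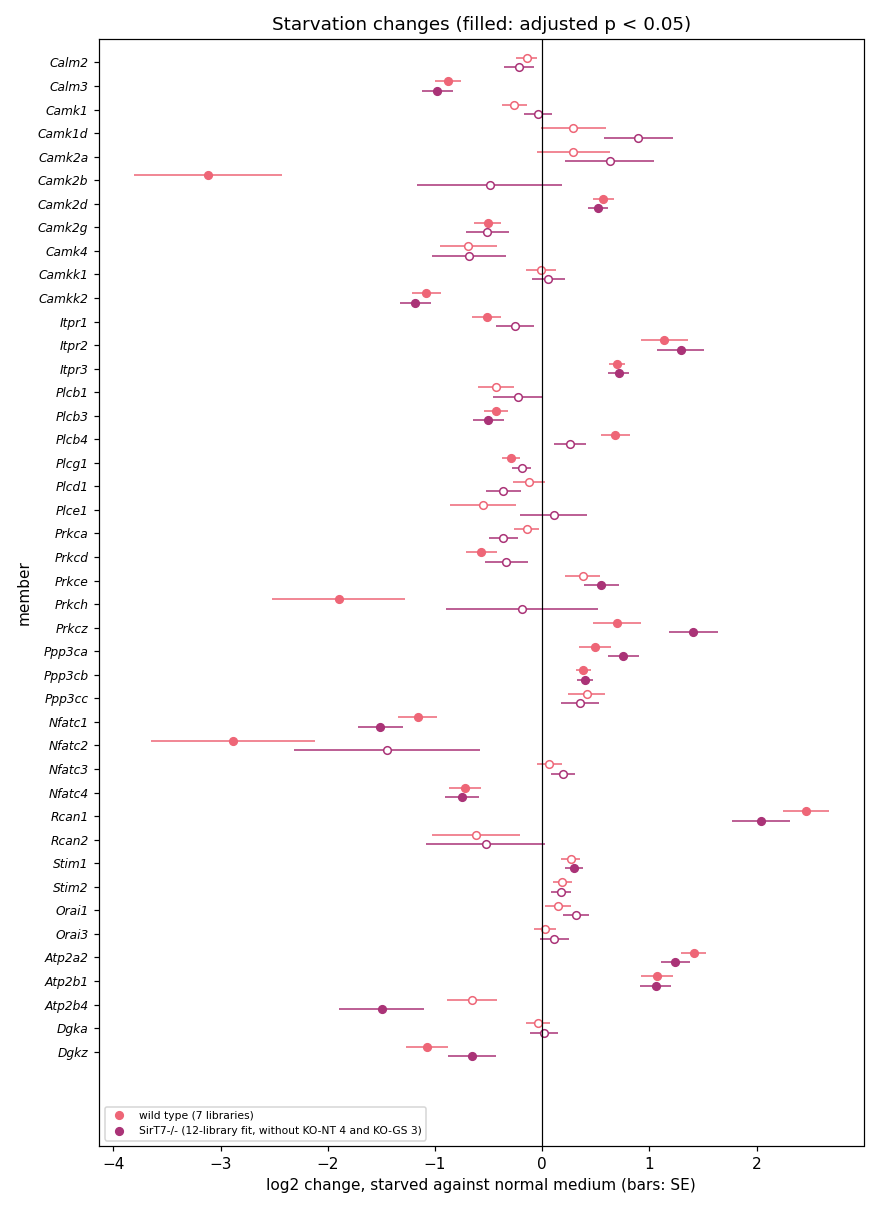
Log2 change with starvation and its SE for each member, in wild type (7 libraries) and in SirT7-/- (12-library fit, without KO-NT 4 and KO-GS 3), with filled points for an adjusted p under 0.05. Rcan1 stands farthest to the right in both genotypes, at 2.46 and 2.04, and Camk2b and Nfatc2 have the widest bars.

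In that fit Rcan1 rose by a log2 change of 2.04 (SE 0.27, adjusted p = 0.00040), against 1.04 with the libraries as labelled. Atp2a2 was at 472, 458 and 505 CPM in KO-NT 1 to 3 and at 1240 and 975 CPM in KO-GS 1 and 2, with 1115 CPM in the library labelled KO-NT 4 and 483 CPM in the library labelled KO-GS 3. Its log2 change was 1.24 (SE 0.13, adjusted p = 0.00013). Atp2b1 (1.06), Itpr2 (1.29), Itpr3 (0.71), Ppp3ca (0.76) and Ppp3cb (0.40) rose too. Calm3 fell by 0.98, Camkk2 by 1.19, Nfatc1 by 1.51 and Nfatc4 by 0.75 on the log2 scale. Prkcz was at 1.39, 1.35 and 1.38 CPM in KO-NT 1 to 3 and at 3.26 and 3.89 CPM in KO-GS 1 and 2 (log2 change 1.41, SE 0.23, adjusted p = 0.0012).

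Atp2b4 was at 110, 110 and 118 CPM in KO-NT 1 to 3 and at 20.4 and 57.8 CPM in KO-GS 1 and 2, a log2 change of -1.50 (SE 0.39, adjusted p = 0.014). Over the alternatives the change ran from -2.48 to -0.96, and the call was lost without KO-GS 1 (-0.96, adjusted p = 0.061). The starved libraries differ from each other by more than the starved wild-type libraries do. Nfatc2 was not called (log2 change -1.45, SE 0.87, adjusted p = 0.23), and neither was Prkch (log2 change -0.19, SE 0.71, adjusted p = 0.86). The macrophage sum was 371 to 677 CPM in KO-NT 1 to 3 and 946 and 109 CPM in KO-GS 1 and 2, and its part in these values was not tested.

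Loss of SirT7 was compared within each medium. In normal medium edgeR, DESeq2 and limma-voom each called 0 of 43 members, against 0.00668% of 14971 genes by edgeR, and 0 members had an unadjusted p under 0.05, as did 3.77% of all genes. Log2 changes ran from -0.61 to 0.91, the highest for Rcan1 (SE 0.42), where the library labelled KO-NT 4 stands apart. The groups overlapped for every member, while they did not for 1.50% of all genes in the higher and 1.58% in the lower direction. In the 12-library fit 0 were called, against 0.0252% of all genes (0.0126% higher and 0.0126% lower). An unadjusted p under 0.05 was found for 4 members (9.30%) and 7.92% of all genes, and log2 changes ran from -0.41 to 0.61. Without overlap were 4 members that were higher and 2 that were lower, against 4.46% and 4.58% of all genes.

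In glucose-free medium each of the 3 tools called 0 members, of 42 tested by edgeR, against 0.00668% of 14972 genes, and 3 members (7.14%) and 3.27% of all genes had an unadjusted p under 0.05. Without overlap were 3 that were higher and 1 that was lower, against 4.77% and 6.24% of all genes. The 12-library fit called 0 of 43, against 0.00630% of all genes, and 1 member (2.33%) and 2.19% of all genes had an unadjusted p under 0.05. That member was Camk2b, at 0.219 and 0.143 CPM in KO-GS 1 and 2. Without overlap were 7 that were higher and 1 that was lower, against 7.39% and 9.37% of all genes.

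The difference between genotypes in the starvation response was tested as an interaction over all 14 libraries. EdgeR, DESeq2 and limma-voom called 0 of 43 members, against 0% of 15666 genes by edgeR, and 4 (9.30%) had an unadjusted p under 0.05, as did 6.06% of all genes. The 12-library fit also called 0, with 3 (6.98%) at an unadjusted p under 0.05, namely Camk2b, Prkcz and Plcb4, beside 3.30% of all genes. For Plcb4 the interaction was -0.44 (SE 0.20), from a log2 change of 0.70 in wild type and 0.26 in SirT7-/- cells in that fit. For Rcan1 it was -1.43 (SE 0.68, adjusted p = 0.68) with the libraries as labelled and -0.43 (SE 0.36, adjusted p = 0.999972) in the 12-library fit. These intervals are wide, and a p that misses the threshold does not show that the genotypes respond alike.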

How the data were processed

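Total RNA was prepared with a TruSeq RNA v2 kit, per the labels. Per the submitters' processing notes, the tools were FastQC 0.11.3, Trimmomatic 0.36, HISAT2 2.1.0, SAMtools, StringTie 1.3.3 and DESeq2 1.18.1, on mm9. The annotation and strand setting are not given in the sources used here, so reads of a gene and of an antisense partner may not be told apart; such exon overlaps cover at most 4.58% of a member. The authors deposited estimated counts per gene as whole numbers. They were fitted with edgeR 4.0.16 (quasi-likelihood test, TMM, filterByExpr with minimum count 10 and total 15), using only the groups compared, or all 14 libraries for the interaction. The alternatives were DESeq2 1.42.0, limma-voom (limma 3.58.1), other scalings and filters, a replicate block, other sets of libraries and leaving out each library. The 12-library fit's own alternatives were chosen after seeing the data. The code was tested on simulated data. Levels per kilobase use exon lengths of GENCODE M21 on GRCm38, another build than mm9, and promoters are RefSeq's on GRCm38.p6. Members, lists, motifs and tests were chosen with earlier results of these data known. In each comparison the called members may be named with values in every library, and other pathway genes by count and up to 6 each way. Promoters were printed by size of called wild-type change, up to 3 each way, not by motif.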

Additional observations from a re-analysis of the deposited data

Results flagged for a closer look

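Of 86 sets of 4 values looked at (each member in WT-NT and in KO-NT), 14 held a library far from the other 3; chance alone gives about 1 in 20, and these sets share their libraries, so they are not independent. In 10 of the 12 flags in KO-NT the distant library was the one labelled KO-NT 4, whose Hspa5 and Txnip levels also go against its label. It was low for Calm3 (178 CPM, the others 348 to 369), Itpr1 (43.9 CPM, the others 69.4 to 74.4) and Atp2b4 (30.2 CPM, the others 110 to 118). It was high for Rcan1 (133 CPM), Atp2a2 (1115 CPM), Atp2b1 (338 CPM), Itpr2 (79.5 CPM), Stim1 (45.3 CPM), Orai1 (13.7 CPM) and Prkcz (2.56 CPM). KO-NT 3 was high for Camk2a (3.14 CPM) and KO-NT 1 for Prkch (4.87 CPM). In WT-NT, replicate 4 was high for Itpr1 (88.6 CPM, the others 61.5 to 65.7) and replicate 2 for Plcd1 (44.2 CPM, the others 29.7 to 32.1).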

How the results depend on the processing

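No member's change reversed as a called value under any alternative run. In wild-type starvation the count of 23 called members was 13 to 23 when 1 library was left out, 27 with DESeq2, 22 with limma-voom and 16 with all 14 libraries in the fit; of all genes 41.9%, 32.9% and 25.9% were called there, and 18.4% to 44.5% with 1 library left out. In SirT7-/- starvation the count of 0 became 1 with DESeq2 (4.12% of all genes), 18 in the 12-library fit (33.1%), and 0 to 5 when 1 library was left out. It was 21 with only the 5 libraries KO-NT 1 to 3 and KO-GS 1 and 2. Of all genes, 3190 were called higher and 2875 lower in that fit. The 12-library count of 18 was 15 to 22 when 1 library was left out. The counts of 0 for SirT7 loss and for the genotype difference were 0 under every alternative run. With a replicate block, 22 members and 38.4% of all genes were called in wild-type starvation. The same block gave 21 members in the SirT7-/- comparison of the 12-library fit. For the alternatives to the 12-library fit the share of all genes is not given here, so their counts stand without it. Same-numbered samples correlated from -0.12 to 0.46 over 13 pairs, 8 of them over 0.1, and 7 had their own number highest. These values were not held against a rate for unpaired samples, so they do not decide whether samples were paired. A shared origin of same-numbered samples was not tested. Camk2b lies at low counts; the cause of lost calls was not tested.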
